A study of Mus musculus with 7 samples.

Results

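Keratins are the intermediate filament proteins of epithelial cells, and they are described here across 7 RNA-seq libraries of aged mouse retinal pigment epithelium (RPE). Members were the rows of the deposited count table whose gene symbol is Krt followed by a number and at most one letter. The table held 53 such rows among 21861. Of these, 24 passed the expression filter and were tested, among 15075 tested genes in all. Both groups were RPE from old mice collected 12 weeks after treatment with an adeno-associated virus (AAV) vector. The 3 AAV-GFP libraries received the fluorescent reporter vector and served as controls. The 4 AAV-GSTA4 libraries received the vector carrying GSTA4, a glutathione transferase. Strain, exact age, sex, vector promoter, route of delivery and whether animals were pooled are not given in the labels, so p-values measure the spread between these libraries, which may be partly technical.

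A keratin filament is built from pairs of one type I (acidic) and one type II (basic) protein, and the pair tells the kind of epithelium. Simple, single-layered epithelia such as the RPE use Krt8 with Krt18. Stratified epithelia use Krt5 with Krt14 in their basal layer, the wet mucosal surfaces use Krt4 with Krt13, and the corneal epithelium makes Krt12. Conjunctiva and cornea, which lie at the front of the eye and not beside the RPE, are stratified.

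Library totals ranged from 15329181 to 28998964 counts. AAV-GFP replicate 3 stood apart, with a mean correlation of log2 CPM (counts scaled to a fixed library size) with the other libraries of 0.838, against 0.910 to 0.926 for the other 6, and results that rest on it are also given without it. The hGSTA4 row, read from its name as the transgene, had 3, 1 and 1 counts in AAV-GFP and 4209, 5239, 45 and 1184 in AAV-GSTA4, lowest in replicate 3. The reporter row, d2EGFP, had 99, 3970 and 2361 counts in AAV-GFP and 163, 64, 7 and 26 in AAV-GSTA4, so its groups overlapped through AAV-GFP replicate 1. The RPE identity list (Rpe65, Rgr, Ttr and 9 others) summed to 23148 to 71098 CPM in AAV-GFP and to 61795 to 109884 CPM in AAV-GSTA4, so the labelled tissue was present in every library. It was lowest in AAV-GFP replicate 3.

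Keratin rows together took 0.136% to 0.288% of the counts of a library, and 28 to 43 of the 53 rows had at least 1 count in a library. Levels of different genes were compared per kilobase of coding sequence. On that scale Krt18 led with a mean of 784 CPM per kilobase over the 7 libraries. Krt15, a basal stratified keratin, came next at 246 and Krt8 at 118 CPM per kilobase. They were followed by Krt7 at 62.0, Krt23 at 51.6 and Krt6b at 48.3 CPM per kilobase. The place of Krt7 depends on the length used: it has 1371 coding but 7049 exonic bases, against 1266 and 1565 for Krt23. Krt15 lay between Krt18 and Krt8 in 5 libraries, but below Krt8 in AAV-GSTA4 replicates 1 and 3, where Krt15 was at 32.7 and 37.9 and Krt8 at 133 and 184 CPM per kilobase.

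Krt8, the type II keratin of simple epithelia, lies on chr15:101996698-102004482 (GRCm38, minus strand), next to its partner Krt18 at chr15:102028180-102032027 (plus strand). The sequences before their start sites, and that of the corneal gene Krt12, are shown because Krt8 had the highest and Krt12 the lowest fold change of the family. Each window is the 250 bases before the RefSeq start (build GRCm38.p6), written from 5′ to 3′ on the gene's strand. Capitals mark matches to 4 motifs searched on both strands. The core promoter motif is TATAAA. The letters recognised by many Krüppel-like factors are CCACCC. The motif of the AP-2 factors is GCCNNNGGC, and the motif of the AP-1 factors is TGANTCA.
Krt8 upstream window, chr15:102004343-102004592, minus strand: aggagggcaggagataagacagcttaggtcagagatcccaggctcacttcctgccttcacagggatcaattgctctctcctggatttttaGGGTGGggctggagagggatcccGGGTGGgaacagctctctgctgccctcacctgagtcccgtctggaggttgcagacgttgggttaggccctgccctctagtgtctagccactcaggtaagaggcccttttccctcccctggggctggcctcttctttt
Krt18 upstream window, chr15:102027966-102028215, plus strand: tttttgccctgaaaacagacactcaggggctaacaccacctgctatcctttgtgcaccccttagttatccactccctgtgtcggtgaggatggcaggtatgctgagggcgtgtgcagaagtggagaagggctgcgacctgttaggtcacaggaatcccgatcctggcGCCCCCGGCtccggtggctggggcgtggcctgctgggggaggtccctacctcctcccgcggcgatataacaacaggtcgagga
Krt12 upstream window, chr11:99422260-99422509, minus strand: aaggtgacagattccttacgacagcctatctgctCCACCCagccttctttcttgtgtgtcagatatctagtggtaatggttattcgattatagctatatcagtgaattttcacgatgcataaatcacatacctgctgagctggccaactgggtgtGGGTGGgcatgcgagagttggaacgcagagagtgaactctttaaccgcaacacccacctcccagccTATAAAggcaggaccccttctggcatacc

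These starts differ from the outermost GENCODE starts printed above: 140 bases of the Krt8 window and 36 of the Krt18 window lie inside the GENCODE gene, and 0 of the Krt12 window. The Krt8 window held CCACCC letters at 2 places, starting at -160 and -137 from the RefSeq start, the second of them inside the GENCODE gene. The Krt18 window held the AP-2 letters once, at -83. The Krt12 window held TATAAA at -29 and CCACCC letters at -216 and -95. No marked motifs overlapped. Of all 32851 windows of the same length in the RefSeq table, 12.4% held TATAAA, 28.1% CCACCC, 13.7% GCCNNNGGC and 6.75% TGANTCA. RefSeq windows were found for 36 of the 53 keratins (37 windows), of which 45.9% held TATAAA and 35.1% CCACCC. These matches describe letters only.

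In AAV-GFP the raw counts of Krt8 were 3098, 3631 and 1450, with replicates always given in numerical order, and in AAV-GSTA4 they were 3704, 3499, 4599 and 6005. After TMM scaling these were 144, 140.2 and 69.6 CPM, and 195, 168, 270.3 and 221.6 CPM. Every AAV-GSTA4 library lay above every AAV-GFP library, and AAV-GFP replicate 3 was lowest. Group averages were 118 CPM ± 42.01 (SD, n = 3) and 214 CPM ± 43.6 (SD, n = 4). By edgeR's quasi-likelihood test the log2 fold change of 0.86 ± 0.31 (SE) missed the adjusted threshold of 0.05 (adjusted p = 0.373, 0.0196 unadjusted). Without AAV-GFP replicate 3 it was 0.59, with an adjusted p of 0.354 in edgeR's test. Of the 50-base words of the Krt8 transcript, 29.7% also occur in transcripts of other genes, mostly the pseudogene Krt8-ps, so part of these counts depends on the unstated handling of multi-mapping reads.

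Krt18, the type I partner, was at 1096, 802 and 401 CPM in AAV-GFP and at 994, 757, 1388 and 1527 CPM in AAV-GSTA4. The groups overlapped, and AAV-GFP replicate 3 was again lowest. Krt18 averaged 766 CPM ± 349 (SD, n = 3) among controls and 1167 CPM ± 354 (SD, n = 4) with AAV-GSTA4. In edgeR the log2 fold change was 0.61 ± 0.40 (SE) and the adjusted p 0.554. Without AAV-GFP replicate 3 the log2 fold change was 0.30, with an adjusted p of 0.699 in edgeR's test. Per kilobase, Krt18 exceeded Krt8 by 5.23 to 8.79 times in every library.

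The simple keratins were also set against the RPE identity list, of which 3 of 12 genes were higher and 0 lower at an unadjusted p under 0.05 (5.27% and 6.63% of all tested genes). Rgr gave the largest part of the list's sum. It was 12273 of 23148 CPM in AAV-GFP replicate 3 and 61493 of 109884 CPM in AAV-GSTA4 replicate 3. As a percentage of that list's summed CPM, Krt8 was 0.203%, 0.248% and 0.301% in AAV-GFP and 0.241%, 0.272%, 0.246% and 0.244% in AAV-GSTA4. On this scale the groups overlapped, with means of 0.251% ± 0.0489 (SD, n = 3) and 0.251% ± 0.0142 (SD, n = 4). The equality of these means rests on AAV-GFP replicate 3, the highest library at 0.301%. Without it the AAV-GFP values were 0.203% and 0.248%, and the groups still overlapped. Krt18 was 1.57% ± 0.157 (SD, n = 3) and 1.35% ± 0.221 (SD, n = 4) of the list. These ratios were chosen after the levels were seen. In bulk tissue, fewer cells of a type and less RNA per cell cannot be told apart.

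**Figure D1:**
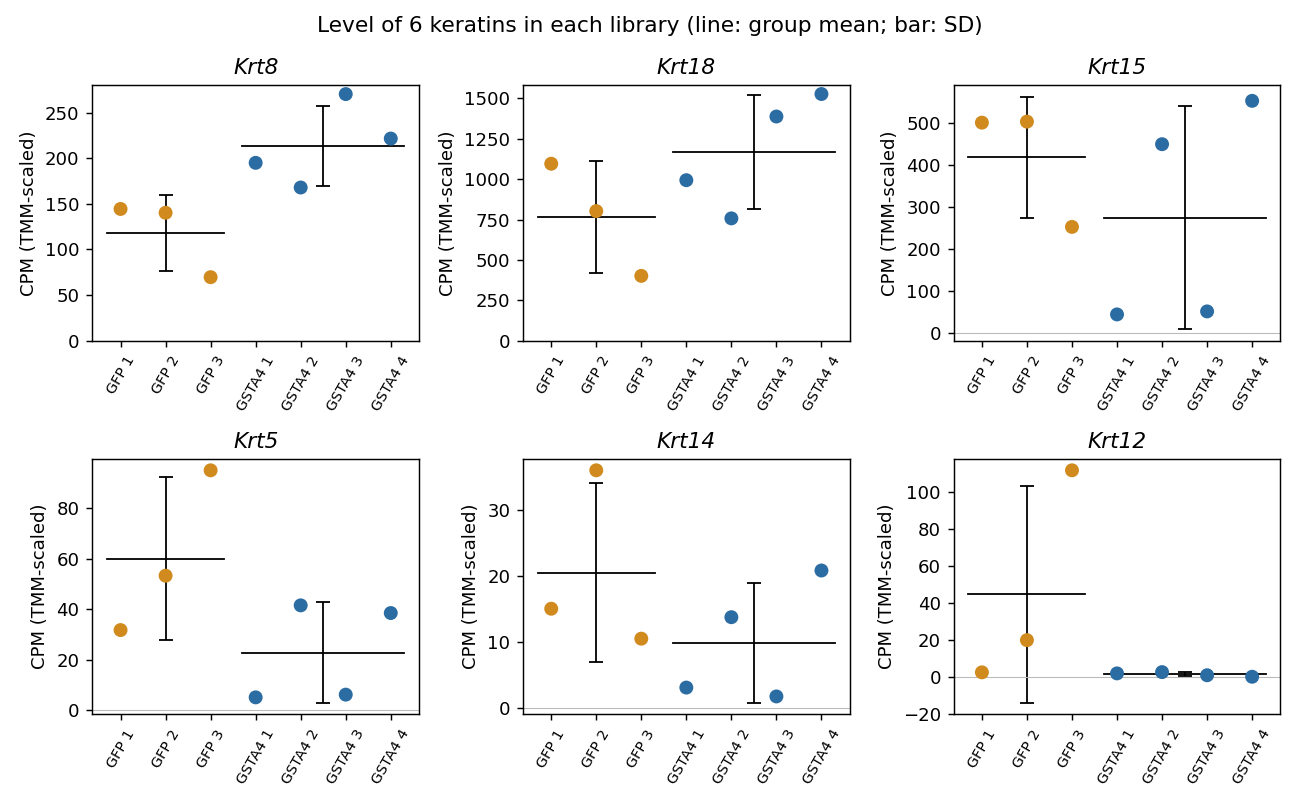
TMM-scaled CPM (linear axes) of 6 keratins in the 3 AAV-GFP (orange) and 4 AAV-GSTA4 (blue) libraries; horizontal lines are group means and bars SD. Krt8 separates the groups, Krt15, Krt5 and Krt14 are lowest in AAV-GSTA4 replicates 1 and 3, and Krt12 reaches 112 CPM in AAV-GFP replicate 3.

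The other simple keratins did not share one pattern. Krt23 was at 80.5, 79.0 and 23.3 CPM in AAV-GFP and at 65.0, 59.1, 61.8 and 88.5 CPM in AAV-GSTA4, so only AAV-GFP replicate 3 was low, as for Krt18. Krt7, found in ducts and in conjunctiva, was at 197, 85.5 and 38.0 CPM in AAV-GFP and at 13.9, 87.1, 13.4 and 161 CPM in AAV-GSTA4. Krt19, also a conjunctival keratin, was at 47.9, 70.01 and 24.97 CPM and at 13.7, 64.1, 6.70 and 56.2 CPM. For Krt7 and Krt19, AAV-GSTA4 replicates 1 and 3 were the lowest of the 7 libraries. Krt20 stayed at or below 2.74 CPM in every library.

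Among the basal stratified keratins, Krt15, made in the basal cells of limbus, conjunctiva and skin appendages, was the most abundant. It lies on chr11:100131758-100135928 (minus strand). It had 10728, 13009 and 5257 counts in AAV-GFP, or 500.0, 502 and 252 CPM. In AAV-GSTA4 it had 849, 9353, 882 and 14954 counts, or 44.7, 449, 51.8 and 552 CPM. Replicates 1 and 3 of AAV-GSTA4 were far below the other 5 libraries, while replicates 2 and 4 lay within or above the AAV-GFP range. In edgeR the log2 fold change was -0.61 ± 0.80 (SE) and the adjusted p 0.786. It was -0.24 without AAV-GSTA4 replicate 1, -0.25 without AAV-GSTA4 replicate 3, -0.96 without AAV-GSTA4 replicate 2 and -1.17 without AAV-GSTA4 replicate 4.

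Krt5 lies on chr15:101707070-101712898 and its partner Krt14 on chr11:100203162-100207548, both on the minus strand. Krt5 was at 31.8, 53.3 and 95.0 CPM in AAV-GFP and at 5.16, 41.6, 6.23 and 38.5 CPM in AAV-GSTA4. The groups overlapped through AAV-GFP replicate 1. Krt5 averaged 60.02 CPM ± 32.1 (SD, n = 3) among controls and 22.9 CPM ± 19.9 (SD, n = 4) with AAV-GSTA4, and edgeR gave -1.39 ± 0.72 (SE) on the log2 scale, adjusted p 0.468. Without AAV-GFP replicate 3 it was -0.89, with an adjusted p of 0.743 in edgeR's test. Krt14 was at 15.05, 36.0 and 10.5 CPM and at 3.11, 13.8, 1.76 and 20.8 CPM, for which edgeR gave -1.05 ± 0.77 (SE) on the log2 scale, adjusted p 0.600. The fold change of Krt14 was -0.36 when AAV-GFP replicate 2, its highest library, was left out. Krt17, an injury-responsive keratin, reached 10.04 CPM in AAV-GFP replicate 2 and lay between 0.0480 and 3.70 CPM elsewhere. Shared 50-base words made up 12.2% of Krt5 and 14.4% of Krt14.

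In the mucosal and hyperproliferative class, AAV-GSTA4 replicates 1 and 3 were the 2 lowest libraries for 6 of 7 tested keratins; for Krt24 the lowest was AAV-GFP replicate 3. Krt4 was at 93.8, 92.2 and 16.95 CPM in AAV-GFP and at 11.6, 87.6, 15.1 and 138 CPM in AAV-GSTA4. Its partner Krt13 was at 97.6, 46.1 and 28.6 CPM and at 4.16, 45.1, 6.88 and 78.95 CPM. For both genes, AAV-GSTA4 replicates 1 and 3 were lowest, while replicates 2 and 4 lay within or above the AAV-GFP range. Krt6a and Krt6b, the type II keratins induced in wounded or fast-renewing epithelium, share 43.6% of Krt6a's 50-base words, so their counts may be split. Krt6b was at 129, 123 and 85.1 CPM and at 15.8, 94.3, 11.3 and 103 CPM. Krt6a was at 52.1, 47.6 and 55.7 CPM and at 6.84, 39.0, 4.41 and 38.5 CPM, so AAV-GSTA4 replicates 2 and 4 also lay below every AAV-GFP library and the groups did not overlap. For Krt6a edgeR gave -1.22 ± 0.67 (SE) on the log2 scale, adjusted p 0.487.

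Krt80, a keratin of differentiating epithelia, was at 16.5, 13.0 and 26.2 CPM in AAV-GFP and at 3.89, 7.29, 1.70 and 14.4 CPM in AAV-GSTA4. The groups overlapped through AAV-GSTA4 replicate 4. For Krt80 edgeR gave -1.44 ± 0.61 (SE) on the log2 scale, adjusted p 0.400 and unadjusted p 0.0398. Krt78 lay between 0.316 and 6.90 CPM and Krt24 between 0.240 and 1.197 CPM. Krt16 did not pass the filter, with 69 counts over all libraries, 37 of them in AAV-GFP replicate 2.

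**Figure D2:**
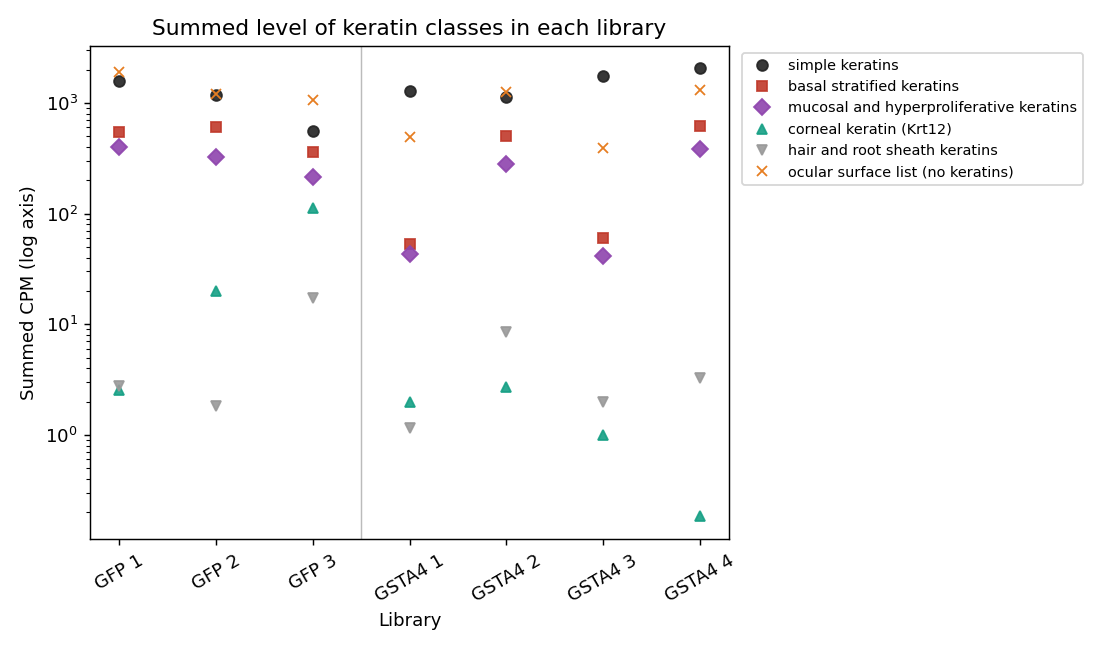
Summed TMM-scaled CPM (log axis) of 5 keratin classes and of the keratin-free ocular surface list in each library; each marker is 1 class in 1 library and the vertical line divides the groups. The basal and mucosal classes sit between 41.0 and 60.7 CPM in AAV-GSTA4 replicates 1 and 3 and at 215 CPM or above elsewhere. The sum of the simple class does not dip in those replicates, though its members Krt7 and Krt19 do.

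The corneal keratin Krt12 lies on chr11:99415666-99422259 (minus strand). It had 55, 516 and 2323 counts in AAV-GFP and 38, 56, 17 and 5 counts in AAV-GSTA4. These were 2.56, 19.9 and 112 CPM, and 2.00, 2.69, 0.999 and 0.184 CPM. AAV-GFP replicates 2 and 3 lay above every other library, and AAV-GFP replicate 1 lay within the AAV-GSTA4 range. Krt12 averages were 44.7 CPM ± 58.6 (SD, n = 3) and 1.47 CPM ± 1.10 (SD, n = 4). In edgeR this was a log2 fold change of -4.94 ± 1.15 (SE), adjusted p 0.363 and unadjusted p 0.00174. In DESeq2 the adjusted p was 0.0232, and over all alternatives adjusted p-values ranged from there to 0.853. Without AAV-GFP replicate 3 the log2 fold change was -2.95, with an adjusted p of 0.352 in edgeR's test. Exons of the antisense gene A830036E02Rik cover 54.4% of the exonic bases of Krt12 (1007 of 1852). A830036E02Rik has no row of its own in the count table. The strand setting of the counting is not given in the sources used here, so reads from the 2 genes may not have been told apart where they overlap.

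Krt12 thus followed a different order of libraries from Krt15. AAV-GSTA4 replicate 4, the highest library for Krt15, was the lowest for Krt12, and AAV-GFP replicate 3, the lowest AAV-GFP library for Krt15, was the highest for Krt12. Slurp1, a secreted protein abundant in cornea and chosen for mention after its values were seen, was at 3.77, 23.2 and 46.1 CPM in AAV-GFP and at 2.53, 3.98, 0.235 and 0.0738 CPM in AAV-GSTA4. It shared its 2 highest and its lowest library with Krt12. Aldh3a1, the aldehyde dehydrogenase that accumulates in corneal epithelium, was highest in the same library as Krt12, at 264 CPM, but was at 131 CPM in AAV-GSTA4 replicate 4, where Krt12 was lowest. Muc5ac, the mucin of conjunctival goblet cells and also named after its values were seen, was at 67.7 CPM in AAV-GFP replicate 1 and 50.7 CPM in AAV-GSTA4 replicate 4, and at or below 0.474 CPM in the other 5 libraries.

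The simple and the stratified keratins were set side by side as sums. Krt8 and Krt18 together were at 1240.0, 943 and 471 CPM in AAV-GFP and at 1189, 925, 1658 and 1749 CPM in AAV-GSTA4. Krt5, Krt14 and Krt12 together were at 49.4, 109, and 217 CPM and at 10.3, 58.0, 8.99 and 59.5 CPM. Per kilobase of coding sequence, the log2 ratio of the second sum to the first was -4.98, -3.40 and -1.40 in AAV-GFP and -7.14, -4.34, -7.87 and -5.21 in AAV-GSTA4. The log2 ratio averaged -3.26 ± 1.80 (SD, n = 3) among controls and -6.14 ± 1.64 (SD, n = 4) with AAV-GSTA4. Krt8 and Krt18 together exceeded Krt5, Krt14 and Krt12 together in every library, least in AAV-GFP replicate 3 and most in AAV-GSTA4 replicate 3. The groups overlapped, because AAV-GSTA4 replicate 2 lay above AAV-GFP replicate 1. With all keratins of the classes, the difference in the log2 ratio was -2.08 in place of -2.88. The basal, mucosal and corneal classes together reached 685 CPM in AAV-GFP replicate 3, above the 560.0 CPM of the simple class there, and lay below the simple class in the other 6 libraries. No test was made on these sums.

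The composition of the keratin signal differed between libraries accordingly. Krt8 and Krt18 gave 84.4% and 88.4% of keratin CPM in AAV-GSTA4 replicates 1 and 3. In the other 5 libraries they gave 36.5% to 56.7%. Krt15 alone gave 3.17% and 2.76% in those replicates and 17.9% to 23.3% in the others. Summed per kilobase, type I keratins exceeded type II keratins by 2.58 to 3.36 times in AAV-GFP and by 3.10 to 5.47 times in AAV-GSTA4, with the 2 highest ratios again in AAV-GSTA4 replicates 1 and 3.

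Genes other than keratins that mark the ocular surface were counted in the same libraries. The list of 24 genes (all in the table, 21 tested) summed to 1902, 1215 and 1056 CPM in AAV-GFP and to 495, 1249, 393 and 1321 CPM in AAV-GSTA4. AAV-GSTA4 replicates 1 and 3 were the 2 lowest libraries for this sum, as for the basal and mucosal keratins. The 4 most abundant members were Perp, Upk1b, Psca and Aldh3a1. Upk1b, a tetraspanin of urothelium and conjunctiva, was at 644, 219 and 84.9 CPM in AAV-GFP and at 75.9, 292, 38.0 and 304 CPM in AAV-GSTA4. Psca, a surface protein of mucosal epithelia, was at 341, 166 and 213 CPM and at 41.3, 106, 23.1 and 173 CPM. Perp, a desmosomal protein, went the other way from these: it was at 225, 241 and 113 CPM in AAV-GFP and at 256 to 300.2 CPM in AAV-GSTA4. The list shares Elf3, Klf5, Trp63 and Ehf with the regulators, Perp, Dsg1a and Pkp1 with the desmosome genes, and Sprr1a with the cornified envelope genes given later. No member of the list was at 0 in all libraries. Trp63, which encodes the basal-cell factor p63, had no count in AAV-GSTA4 replicate 1 and was between 0.881 and 5.33 CPM elsewhere. The part of other tissue in the keratin values was not tested.

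AAV-GSTA4 replicates 1 and 3 were the 2 lowest libraries for 12 of the 24 tested keratins. This held for 3 of 4 basal, 6 of 7 mucosal and 2 of 6 simple keratins, and also for 16 of the 21 tested ocular surface genes. Over all 15075 tested genes it held for 7.56%, and for 1 of 12 RPE identity genes. This ordering was noticed in the keratins themselves, so the counts are a description.

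**Figure D3:**
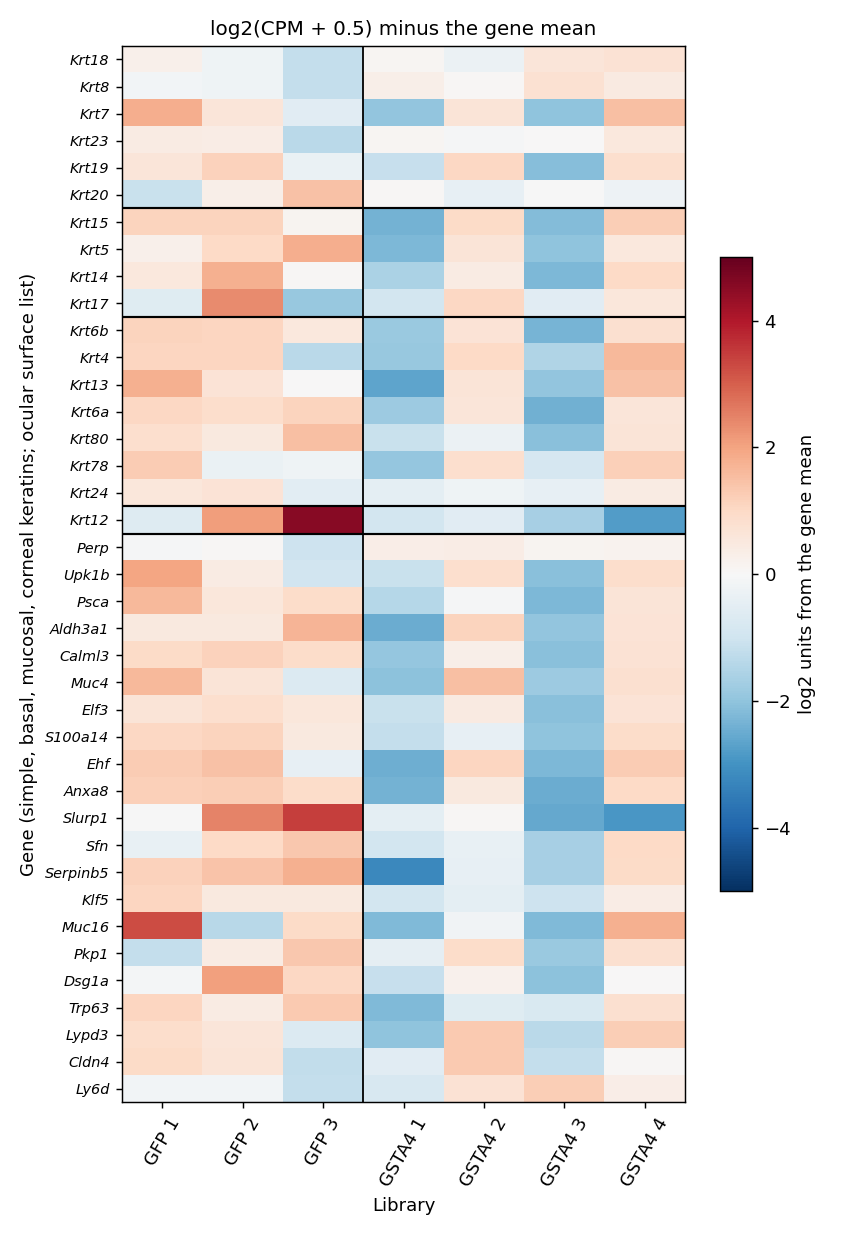
Colour gives log2(CPM + 0.5) minus the gene's mean over the 7 libraries (columns) for 18 tested keratins, grouped by class between black lines, and 21 ocular surface genes below them. AAV-GSTA4 replicates 1 and 3 are blue across the basal and mucosal keratins and most surface genes, and Krt12 is darkest red in AAV-GFP replicate 3.

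Keratins of cornifying skin and hair were sparse. Krt10, a suprabasal keratin, was at 12.3 to 23.4 CPM in AAV-GFP and at 13.0 to 19.2 CPM in AAV-GSTA4, and Krt1 lay between 1.35 and 2.94 CPM. Krt222, a keratin-like gene outside the usual classes, was at 8.36 to 15.7 CPM and at 6.05 to 13.0 CPM. The 24 hair and root sheath rows summed to 2.80, 1.82 and 17.2 CPM in AAV-GFP and to 1.16, 8.59, 2.00 and 3.25 CPM in AAV-GSTA4. Krt79 had 107 of its counts in AAV-GFP replicate 3 and 75 in all other libraries; Krt75 stayed at or below 2.45 CPM. Of the 29 keratins that did not pass the filter, 3 (Krt33b, Krt81 and Krt86) had no count in any library. At 3 counts in a library this allows at most 0.103 to 0.196 CPM of the library total, without TMM scaling. None of the 29 exceeded a mean of 0.625 CPM, and 12 of them were highest in AAV-GFP replicate 3. That library also had counts on 582 of 1490 olfactory and vomeronasal receptor genes, at 826 CPM of the library total, against 49 to 460 genes and 28.8 to 117 CPM elsewhere. The part of this background in the hair keratin counts was not tested.

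Between the groups, 0 of the 24 tested keratins passed an adjusted p of 0.05 in edgeR's quasi-likelihood test, as did 0% of all genes tested. At an unadjusted p under 0.05 there were 3 keratins, 12.5% of those tested, beside 11.9% of all genes. Krt12 and Krt80 were lower (background 6.63%) and Krt8 was higher (background 5.27%) in AAV-GSTA4. The groups did not overlap for 2 keratins (8.33%), beside 12% of all genes: Krt8, higher in AAV-GSTA4 as were 6.44% of all genes, and Krt6a, lower as were 5.61%. Both shares lay near the background of the whole table. DESeq2 called 1 keratin (Krt12) among the 19 to which it gave an adjusted p, where it called 1.3% of all genes (0.614% lower, 0.683% higher in AAV-GSTA4), and limma-voom called 0 keratins, where it called 0.968% of all genes.

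By direction, 20 of the 24 keratins had a negative log2 fold change, beside 55.4% of all genes, and their median was -0.76 beside -0.07. The count was 17 of 28 (60.7%) without AAV-GFP replicate 1 and 17 of 24 (70.8%) in limma-voom, where 54.0% and 51.3% of all genes were negative. With library totals in place of TMM scaling it was 21 of 24, where 75.9% of all genes were negative. In edgeR with TMM the 4 positive ones were Krt8, Krt18, Krt23 and Krt1. All 4 basal, all 7 tested mucosal keratins and Krt12 were negative, with a median of -0.97 over the 12 of them. The tested keratins number 24 to 28 in the following fits. Leaving out AAV-GSTA4 replicate 3 moved the median of the keratins to -0.37, and leaving out AAV-GSTA4 replicate 1 moved it to -0.48. Without AAV-GFP replicate 1 it was -0.45 and without AAV-GFP replicate 2 it was -0.47. With library totals the median of all genes moved from -0.07 to -0.37. Relative to that median, Krt8 was 0.93 with TMM and 0.98 with library totals, and Krt12 was -4.86 and -5.07.

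**Figure D4:**
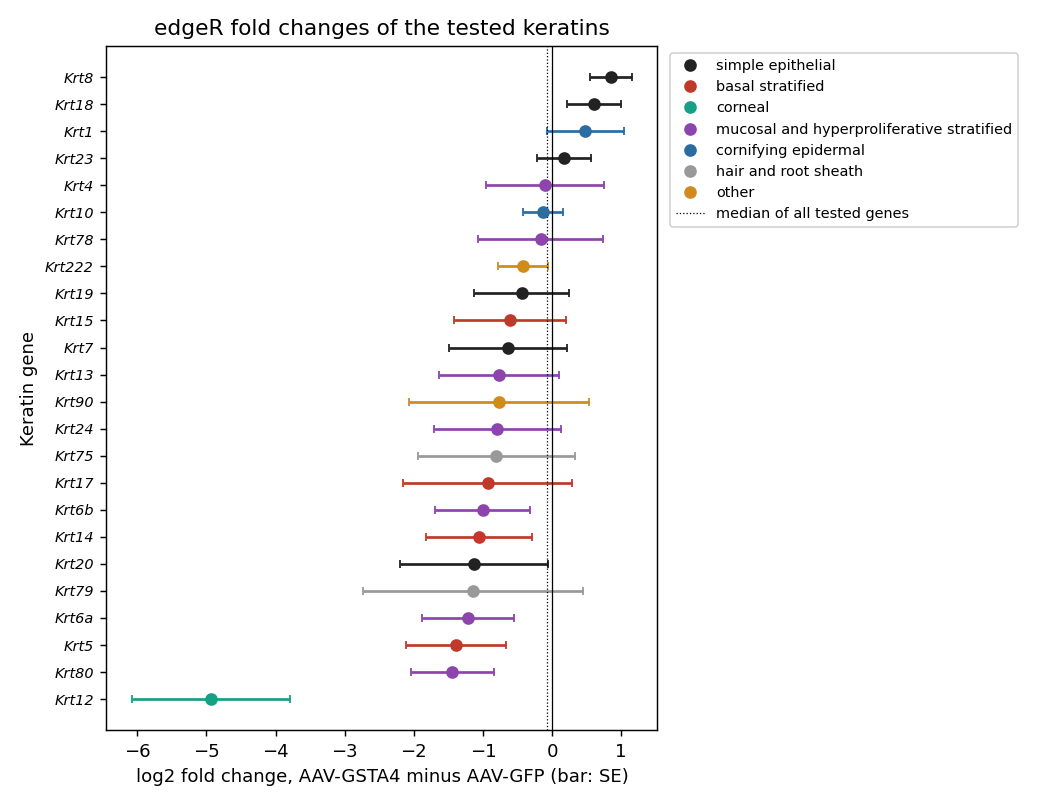
edgeR log2 fold change, AAV-GSTA4 relative to AAV-GFP (horizontal axis, bars SE) for the 24 tested keratins (vertical axis), coloured by class; the dotted line is the median of all tested genes. Krt12 lies farthest left at -4.94 and Krt8 farthest right at 0.86; no keratin passed the adjusted threshold.

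Genes that anchor or regulate keratins were counted from fixed lists, and 0 passed the adjusted threshold in any of them in edgeR's test. Among 17 tested desmosome and plakin genes, which tie keratin filaments to cell junctions, 1 was higher and 1 lower at an unadjusted p under 0.05 (5.27% and 6.63% of all genes) and the median log2 fold change was -0.35. Dsp, the plakin that binds keratins at desmosomes, was the higher one, at 13.7 to 15.3 CPM in AAV-GFP and 20.3 to 24.4 CPM in AAV-GSTA4, a log2 fold change of 0.60 with an adjusted p of 0.374 in edgeR's test. Dsg1a, a desmosomal cadherin of stratified epithelia, was the lower one, with a log2 fold change of -1.99. Perp, Pkp4, Jup and Ppl were the most abundant of this list. Periplakin (Ppl) was at 32.8, 26.5 and 26.3 CPM in AAV-GFP and at 6.58, 58.8, 4.41 and 30.7 CPM in AAV-GSTA4, with the same 2 lowest libraries as Krt15. All 8 hemidesmosome genes were tested (led by Dst, Cd151, Itga6 and Col17a1), 0 had an unadjusted p under 0.05, and the median was 0.12.

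Of 18 tested regulators of keratin genes, 2 were lower at an unadjusted p under 0.05, where the share of all genes lower at that level was 6.63%. These were Klf4 and Klf5, Krüppel-like factors of surface epithelia, with log2 fold changes of -1.44 and -1.18 and adjusted p-values of 0.363 and 0.375 in edgeR's test. The groups did not overlap for either gene, where 5.61% of all genes were lower without overlap. Pax6, Klf6, Zeb2 and Elf3 were the most abundant regulators. Elf3, an epithelial transcription factor, was at 49.3, 56.3 and 46.2 CPM in AAV-GFP and at 13.9, 42.95, 6.93 and 50.03 CPM in AAV-GSTA4. Pax6, the eye master regulator, was at 150 to 201 CPM and at 44.2 to 162 CPM. Among the 4 tested genes of the cornified envelope, 0 had an unadjusted p under 0.05, and their median was -0.10. Tgm1, the transglutaminase that cross-links it, was at 15.1, 18.0 and 14.6 CPM and at 4.42, 19.0, 1.59 and 20.9 CPM.

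Of 16 other intermediate filament genes, 2 were higher and 3 lower at an unadjusted p under 0.05 (5.27% and 6.63% of all genes). The higher ones were Bfsp1 and Bfsp2, the beaded filament genes of the lens fibre, and the lower ones were the neuronal genes Nefl, Nefm and Ina. Bfsp2 reached 4371 CPM in AAV-GSTA4 replicate 2 and lay between 39.0 and 264 CPM elsewhere. Bfsp1 was at 226 CPM in that library and between 7.58 and 32.5 CPM elsewhere. The groups overlapped for both genes. Vim, the mesenchymal filament gene, was at 82.4 to 143 CPM in AAV-GFP and at 75.6 to 258 CPM in AAV-GSTA4.

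Lists for other tissues were summed beside the keratins. The rod photoreceptor list was at 14788 to 37685 CPM in AAV-GFP and at 7023 to 12994 CPM in AAV-GSTA4, highest in AAV-GFP replicate 3, the library with the most Krt12. The lens list was at 2717 to 11122 CPM and at 3999 to 106569 CPM. The corneal stroma and endothelium list was at 874 to 2507 CPM and at 1358 to 2411 CPM. Its sum did not dip in AAV-GSTA4 replicate 1, where Col8a2 alone gave 2031 of the 2411 CPM. That library was the lowest for Slc4a11 and Kera, at 3.16 and 0 CPM, but not for the other members. The iris and ciliary epithelium list was at 432 to 711 CPM and at 777 to 1053 CPM. Most of these sums came from Wls, at 235 to 558 CPM and at 657 to 970 CPM. Of the 9 tested members, 7 had a negative log2 fold change, beside 55.4% of all genes, and the median was -0.44. Endothelial and mural genes summed to 266 to 373 CPM and 277 to 442 CPM, and melanocyte genes to 1102 to 2705 CPM and 1233 to 2156 CPM. In the endothelial and mural sum, Acta2 was at 115 to 290 CPM and 231 to 361 CPM. In the melanocyte sum, Dct, also in the RPE identity list, was at 952 to 2193 CPM and 1057 to 1845 CPM. The part of these tissues in the keratin values was not tested.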

How the data were processed

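RNA was extracted with TRIzol, and polyadenylated RNA was made into full-length cDNA with a low-input kit, amplified and fragmented by transposase, per the labels' protocols. The authors deposited 1 table of raw read counts per gene symbol. The submitters' processing notes name STAR 2.7.1a and featureCounts 1.6.2, and the builds GRCm38 and GRCh38; the annotation, the strand setting and the multi-mapping rule are not given in the sources used here. No molecular identifiers are mentioned, so detection floors cover counting error only.

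Groups were compared with edgeR 4.0.16 under R 4.3.3 (glmQLFTest) on the deposited counts of all 7 libraries, with group as the only factor, TMM scaling, the default filter and Benjamini-Hochberg adjustment over all 15075 tested genes at 0.05. Of 21861 rows, 26 repeat a symbol; each was kept. Standard errors were derived as the absolute log2 fold change over the root of the F statistic. Gene positions and coding lengths (longest coding sequence) are from GENCODE M21 (GRCm38), and shared 50-base words were counted over its transcripts. Alternatives were other scalings and filters, DESeq2 1.42.0, limma-voom with sample quality weights (limma 3.58.1), a replicate block, and each library left out. Code was tested on simulated counts.

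The keratins, classes and lists were chosen with earlier results of these data known. Named were Krt8, Krt18, Krt5, Krt14, Krt12, every keratin with a mean of at least 1 CPM, an unadjusted p under 0.05 or groups that did not overlap, and the most abundant genes of each list. Exonic length for the ratio of sums was an alternative added after seeing the data.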

Additional observations from a re-analysis of the deposited data

Results flagged for a closer look

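In AAV-GSTA4, the 4 libraries allow a check for a library isolated from the other 3, and 44 keratin and list values were examined, where chance flags about 1 in 20. The list of other intermediate filament genes summed to 5024 CPM in AAV-GSTA4 replicate 2 and to 243 to 655 CPM in the other 3, so the gap to the nearest was 0.914 of the whole range. Bfsp2 alone gave 4371 of the 5024 CPM in that library. The hemidesmosome list summed to 158 CPM in the same library and to 72.7 to 82.7 CPM in the others, with a gap of 0.882. No keratin and no keratin class was isolated in this way.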

How the results depend on the processing

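Over all alternatives, 355 recomputed values were unchanged, 18 fold changes reversed, 8 counts moved and 1 fold change, that of Krt12 in DESeq2, came past the threshold. The fold changes in this tally are those of the 21 keratins with a mean of at least 1 CPM. Unchanged meant the same direction and side of the threshold for a fold change. For a count it meant the same value or one within 1.5 times. For a sum or the log2 ratio it meant a shift smaller than the SD pooled over the groups. Krt8, Krt18, Krt5 and Krt14 kept their direction in all 15 alternatives and Krt12 in all 14 that kept it; the filter of 10 counts in every library removed it. DESeq2 called 167 genes and limma-voom 146, where edgeR called 0; DESeq2 called 1 keratin, Krt12, at a log2 fold change of -4.89. Leaving out 1 library gave 0 to 1 genes past the threshold (1 without AAV-GSTA4 replicate 3), 0 keratins past it, and 1 to 4 keratins at an unadjusted p under 0.05. The log2 fold change then ranged from 0.59 to 1.03 for Krt8, 0.30 to 0.96 for Krt18, -1.85 to -0.89 for Krt5, -1.70 to -0.36 for Krt14 and -5.48 to -2.95 for Krt12. The difference in sums ranged from 289 to 673 CPM (simple) and from -129 to -45.1 CPM (stratified and corneal), and that of the log2 ratio from -3.74 to -1.95.

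Among the 21 keratins with a mean of at least 1 CPM, signs reversed for 7, and the cause was not tested. Leaving out 1 library spanned -1.45 to 0.16 for Krt7, -0.22 to 0.42 for Krt23, -0.80 to 0.26 for Krt4, -0.33 to 0.12 for Krt10, -0.71 to 0.67 for Krt78, -1.51 to 2.09 for Krt17 and -1.89 to 2.56 for Krt79. Krt4 was 0.21 without AAV-GFP replicate 1, 0.19 without AAV-GFP replicate 2 and 0.23 without AAV-GSTA4 replicate 3. Krt78 was 0.23 without AAV-GSTA4 replicate 1 and 0.12 without AAV-GSTA4 replicate 3. Krt23 was -0.0365 with library totals and -0.0318 in limma-voom, where Krt78 was 0.14 and Krt79 3.19. Signs also reversed for Krt20 and Krt90, which had means below 1 CPM. Krt20 went from -1.13 to 0.17 without AAV-GFP replicate 3 and to 0.16 in limma-voom. Krt90 went from -0.77 to 0.81 in limma-voom.

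No pairing of the samples by number was seen, though so few libraries cannot exclude it. Correlations of same-numbered deviations were -0.0889, 3.33e-05 and 0.00904 by title, and -0.0889, 0.0146 and -0.128 by library-name number. Pairs with different title numbers ranged from -0.128 to 0.183. With the replicate block by title number, which leaves out AAV-GSTA4 replicate 4, 1 gene passed the threshold, 10 of 22 keratins had an unadjusted p under 0.05 (45.5%, beside 5.63% of all genes in that fit), and Krt17 was 0.19. With the block by library-name number, which leaves out AAV-GSTA4 replicate 2, 6 of 24 keratins did (25%, beside 7.91%) and Krt10 was 0.0160. Of the hair and root sheath keratins, 22 of 24 had too few counts to be tested.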
